A study of Mus musculus with 88 samples.

Results

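The genes followed here are 6 ligands of the bone morphogenetic protein (BMP) and transforming growth factor β (TGF-β) family, Bmp2, Bmp4, Bmp7, Bmp8b, Tgfb1, and Tgfb2, and the 4 Id genes, Id1, Id2, Id3, and Id4, whose transcription BMP signals raise in many cells. They are listed by name, with earlier results of these data known, and they are 10 of the 54633 genes listed in at least 1 of the series' expression tables. All 10 were listed in each of the 4 tables, which hold 53697 genes (mesoderm series), 54393 genes (endoderm series), 26007 genes (bulk embryoid bodies), and 15830 genes (single cells).

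The study asked how loss of subunits of Polycomb repressive complex 2 (PRC2) changes the exit of mouse embryonic stem cells (ESCs) from pluripotency. In the directed series, wild-type (WT) E14 cells and Mtf2 null and Jarid2 null cells, all grown in serum with leukemia inhibitory factor (LIF), were sequenced in bulk undifferentiated (UD) and at 5, 24, and 48 h of monolayer culture toward mesoderm or toward endoderm, with 2 libraries per genotype, time, and series (48 libraries). In the bulk embryoid bodies (EBs, aggregates that differentiate once LIF is removed), lines labelled Mtf2 null, Jarid2 null, and Eed null were set against the WT lines Pcl1-3 WT, JM8, and J1 at days 0, 2, 4, and 7, with 1 sample per line and day (24 samples). Each of these samples was summed from 1 or 2 deposited columns, most of them named as replicates. In the single-cell EBs, viable cells of WT and of Mtf2, Jarid2, and Eed null lines were sorted into multiwell plates at days 0, 4, 7, and 10, with 1 library per genotype and day (16 libraries). In each assay a null genotype was represented by 1 line, so line and genotype cannot be told apart. In the bulk EBs the day 0 samples are named as monolayer cultures and the later ones as EBs, so day 0 differs from the later days in culture format as well as in time. The mesoderm medium held Activin A, BMP4, CHIR99021 (a WNT pathway activator), and FGF2 for 24 h and then BMP4 with A-83-01, an inhibitor of TGF-β and Activin receptors. The endoderm medium held Activin A, CHIR99021, and FGF2 for 24 h and then Activin A with DM3189, an inhibitor of BMP receptors.

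BMP and TGF-β ligands are secreted dimers that bring together type I and type II receptor kinases, which phosphorylate Smad proteins that enter the nucleus with Smad4. BMP receptors use Smad1, Smad5, and Smad9, TGF-β and Activin receptors use Smad2 and Smad3, and the inhibitory Smads Smad6 and Smad7 and secreted antagonists such as Nog and Fst dampen the signal. Id proteins carry a helix-loop-helix domain but no DNA-binding basic region, so that they hold E proteins away from their partners, and in ESCs BMP4 in serum raises them beside LIF. PRC2 places a repressive methyl mark on histone H3 at developmental genes, EED is a core subunit of it, and MTF2 and JARID2 are accessory subunits that guide it to its targets.

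Promoter windows, the 250 bases before the transcription start, were taken from RefSeq (GRCm38.p6) and found for 7 of the 10 genes, all but Bmp2, Bmp7, and Id1. The 2 shown are among the genes whose levels later differed with genotype in both directed series, Bmp4 on the minus strand (chr14:46390670-46390919) and Id4 on the plus strand (chr13:48260866-48261115). Id2 and Id3 also differed with genotype in both series, and their windows are described but not printed. Capitals mark GGCGCC, a sequence that BMP-responsive Smads are known to bind, TATAAA, and CCAAT (or its reverse complement ATTGG), each searched on both strands.
Bmp4: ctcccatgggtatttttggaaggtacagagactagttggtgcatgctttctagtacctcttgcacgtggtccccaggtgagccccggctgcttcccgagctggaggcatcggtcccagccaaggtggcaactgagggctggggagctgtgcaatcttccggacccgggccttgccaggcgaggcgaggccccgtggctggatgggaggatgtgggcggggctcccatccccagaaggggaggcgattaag
Id4: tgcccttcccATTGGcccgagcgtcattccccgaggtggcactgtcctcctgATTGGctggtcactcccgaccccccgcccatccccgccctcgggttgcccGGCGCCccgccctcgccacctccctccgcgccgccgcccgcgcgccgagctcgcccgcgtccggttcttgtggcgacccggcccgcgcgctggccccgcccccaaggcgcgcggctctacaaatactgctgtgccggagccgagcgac
The Id4 window held 35 CpG dinucleotides, more than 97% of the 32841 RefSeq windows of this length (median 6), with 1 GGCGCC and 2 CCAAT. The Bmp4 window held 11 CpG and none of these motifs. Id2 held 18 CpG, 1 GGCGCC, and 3 CCAAT, and Id3 held 18 CpG and neither motif; both windows overlap annotated exons and are not printed. Of all windows, 9.59% held GGCGCC, 33.9% held CCAAT, and 12.4% held TATAAA, which among the 7 was found in Tgfb2 alone. A match of letters is a description of the window and not of binding.

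Directed libraries held 9112116 to 16898498 counts in the mesoderm series and 9889871 to 16373027 in the endoderm series, and bulk EB samples held 4071242 to 30457254 reads. In CPM, counts scaled by library size to a common total, Mtf2 ran from 30.2 to 38.2 in Mtf2 null libraries of the mesoderm series, against 205.7 to 498.7 in WT, and from 31.1 to 36.8 against 217.6 to 508.7 in the endoderm series. Jarid2 was lower in both Jarid2 null libraries than in both WT libraries of the same time in undifferentiated cells and at 5 and 24 h in either series, for example 189 and 219.6 against 318 and 337 CPM at 24 h in the mesoderm series, but not at 48 h. Transcripts of this gene remained in all Jarid2 null libraries. In the single cells each targeted gene was lower in its own null libraries than in the WT library of the same day, as given with those results. In WT cells at 48 h, several defining markers of the intended lineages were scarce. In the endoderm series Foxa2 averaged 0.173, Sox17 0.275, and Cxcr4 0.365 CPM while Pou5f1, a pluripotency factor, averaged 678 CPM, and in the mesoderm series Hand1 averaged 5.19, Foxf1 0.098, and Kdr 0.139 CPM. These mesoderm genes are part of a list of 6 lateral mesoderm markers. The summed WT level of the list, given further on with the Mtf2 null markers, was higher than these together. The series are therefore called by their media.

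The Id genes parted between the media in WT cells. Id1 (ENSMUSG00000042745, chromosome 2 from 152736251 to 152737410 of GRCm38) was at 77.95 and 76.3 CPM in the 2 undifferentiated WT libraries of the mesoderm series, 41.6 and 45.5 at 5 h, 42.8 and 41.5 at 24 h, and 368 and 354 at 48 h. In the endoderm series it was at 75.3 and 77.8, 17.3 and 17.8, 10.8 and 9.46, and 5.20 and 1.70 CPM. Both 48 h mesoderm libraries lay above all other WT libraries, and both 48 h endoderm libraries lay below them. Id3 (ENSMUSG00000007872, chromosome 4 from 136143497 to 136145755) was at 7.10 and 7.33, 22.2 and 19.3, 24.1 and 20.0, and 123 and 135 CPM in the mesoderm series. Toward endoderm it was at 7.58 and 5.81, 13.7 and 14.7, 10.9 and 11.1, and 1.56 and 1.60 CPM. It thus rose at 5 h in both media and parted after 24 h.

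Id2 (ENSMUSG00000020644, chromosome 12 from 25093799 to 25097140) was at 13.1 and 15.0 CPM in undifferentiated WT cells of the mesoderm series, 7.59 and 6.16 at 5 h, 11.2 and 8.83 at 24 h, and 146 and 102 at 48 h. Toward endoderm it was at 15.4 and 16.4, 3.55 and 3.27, 2.18 and 3.00, and 8.66 and 4.33 CPM, so that at 48 h it lay above its 24 h level but below its starting level. Id4 (ENSMUSG00000021379, chromosome 13 from 48261228 to 48266026) was at 1.28 and 1.96, 3.61 and 3.76, 9.94 and 9.63, and 18.8 and 17.0 CPM in the mesoderm series. Toward endoderm it was at 2.94 and 1.97, 5.64 and 4.11, 8.43 and 9.77, and 1.47 and 2.26 CPM. Antisense genes overlap Id4 over 1396 bases (A330033J07Rik) and 1364 bases (Gm49291), and the strand setting of the counting is not given in the sources used here, so reads of these genes cannot be told apart.

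The change from undifferentiated cells to 48 h was tested between the media with edgeR's quasi-likelihood test over all genes. Calls were made at a p under 0.001 after Benjamini-Hochberg adjustment and an absolute log2 fold change above 1. In WT cells all 4 Id genes changed more toward mesoderm, and 4 of the 10 genes were called against 1.35% of all genes tested. The log2 difference between the changes was 6.68 for Id1 (standard error (SE) 0.32, edgeR adjusted p = 4.62e-16), 6.24 for Id3 (SE 0.30, edgeR adjusted p = 4.62e-16), 4.42 for Id2 (SE 0.27, edgeR adjusted p = 1.65e-13), and 3.85 for Id4 (SE 0.38, edgeR adjusted p = 1.53e-08). No ligand was called. The call of Id4 was lost when only the groups compared were fitted (3.84, edgeR adjusted p = 0.00155). The 2 libraries of a group are technical duplicates by the study's description, so these p-values measure the spread between libraries and not between cultures, and in bulk samples fewer cells expressing a gene and less RNA per cell cannot be told apart.

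Taken by step in the mesoderm medium, 3 of the 10 genes were called from undifferentiated cells to 5 h (4.13% of all genes), 2 from 5 to 24 h (4.41%), and 6 from 24 to 48 h (4.16%). From 24 to 48 h Id1 rose by a log2 fold change of 3.10 (SE 0.16), Id2 by 3.64 (SE 0.17), and Id3 by 2.55 (SE 0.16), with the highest edgeR adjusted p at 4.35e-10. Id4 rose from 5 to 24 h by 1.41 (SE 0.18, edgeR adjusted p = 8.48e-06), and Id3 rose from undifferentiated cells to 5 h by 1.53 (SE 0.19, edgeR adjusted p = 8.29e-06). Over the same first step Id2 changed by -1.03 and Id4 by 1.16, and both calls were lost without any 1 of the 4 libraries (-1.179 to -0.88 and 0.92 to 1.52, highest edgeR adjusted p = 0.0136 and 0.0175). In the endoderm medium 3 genes were called at the first step (2.1% of all genes), 1 at the second (2.5%), and 5 at the third (3.88%). There Id1 fell by 2.12 and Id2 by 2.22 on the log2 scale to 5 h (edgeR adjusted p = 1.30e-06 and 9.02e-07), while Id3 rose by 1.08, a call that was lost without WT replicate 2 of either time (0.90 to 1.30, highest edgeR adjusted p = 0.00465). From 24 to 48 h Id3 fell by 2.79 and Id4 by 2.29 (edgeR adjusted p = 4.55e-09 and 4.65e-06), and Id1 with -1.53 did not pass (edgeR adjusted p = 0.00114). Id2 rose by 1.32 (edgeR adjusted p = 0.000562), but not without either WT library of 24 h or replicate 1 of 48 h (0.74 to 1.73, highest edgeR adjusted p = 0.0476).

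**Figure D1:**
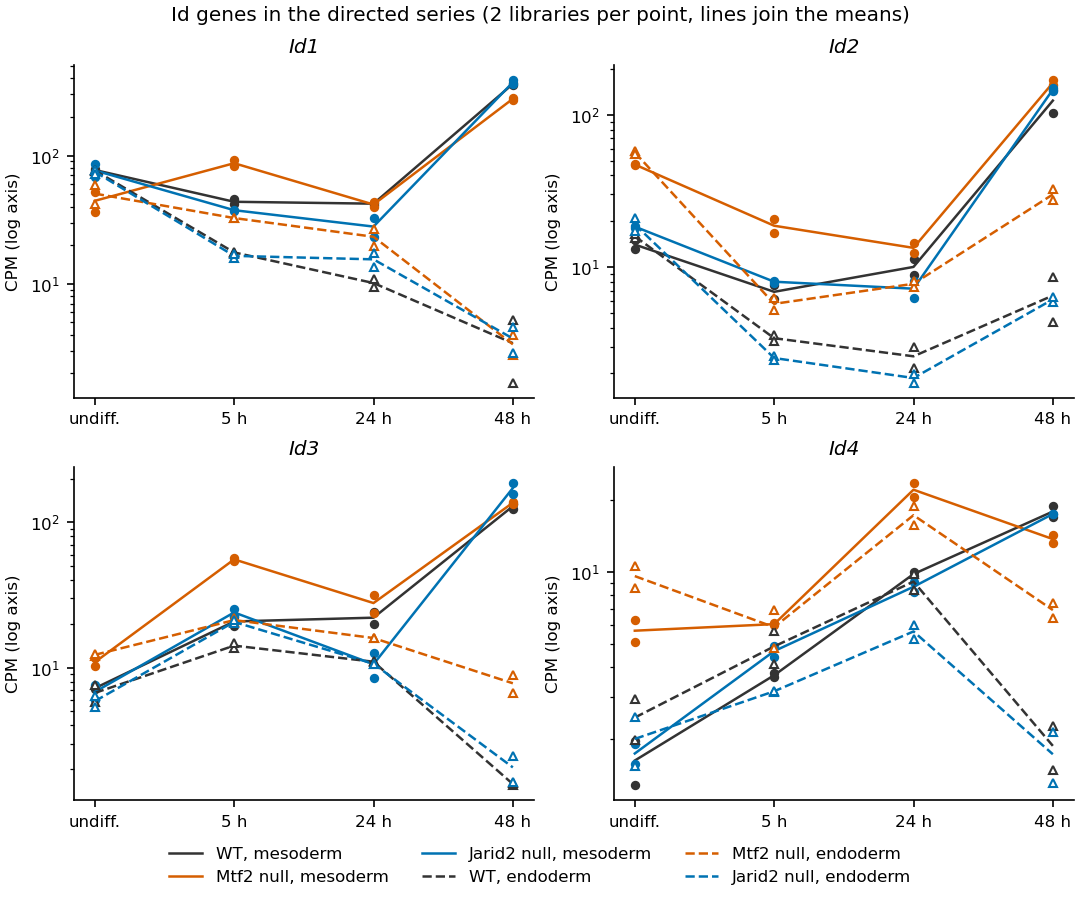
Levels of the 4 Id genes in CPM (log axis) against time in both directed series, with 1 point per library, lines through the means of 2 libraries, and a color per genotype. At 48 h Id1 lies between 273 and 385 CPM in the mesoderm series (solid lines) and between 1.70 and 5.20 CPM in the endoderm series (dashed lines) in all 3 genotypes.

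Mtf2 null cells also showed the parting of the Id genes by medium but differed from WT in the starting level. Undifferentiated Mtf2 null libraries had Id2 at 47.4 and 46.9 CPM in the mesoderm series and 58.1 and 55.1 CPM in the endoderm series, above every undifferentiated WT library (13.1 to 16.4). Id4 was at 6.26 and 5.08 CPM and at 10.6 and 8.57 CPM, again above WT (1.28 to 2.94). Id3 was at 10.2 and 11.6 CPM and at 12.1 and 12.4 CPM against 5.81 to 7.58 in WT. Id1 was lower, at 36.3 and 52.4 CPM and at 41.99 and 58.97 CPM against 75.3 to 77.95 in WT. A joint fit of the undifferentiated cells, in which the series was a term, gave a log2 fold change of 1.79 for Id2 (SE 0.12, edgeR adjusted p = 5.68e-14) and 1.88 for Id4 (SE 0.18, edgeR adjusted p = 8.59e-11). Joint fits take the libraries of the 2 series as independent. Undifferentiated replicate 2 libraries of the 2 series lay closer to each other than to their own duplicates, as given at the end. In WT their chi-square per degree of freedom was 8.08, against 11.5 and 12.1 within the series. The p-values of joint fits may therefore be too small, which was not tested. Id3 with 0.73 and Id1 with -0.70 stayed under the limit of fold (edgeR adjusted p = 1.84e-05 and 5.75e-05). With Bmp2 and Bmp7, described further on, 4 of the 10 genes were called in that fit, against 14.5% of all genes. In the separate fits of the mesoderm and endoderm series the calls of Id2 (1.74 and 1.83) and Id4 (1.79 and 1.97) were made too, among 3 and 2 called members against 11.1% and 11% of all genes. The day 0 single cells, given further on, did not show the differences of Id2 and Id1.

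At 5 h in the mesoderm medium Mtf2 null cells had more of 3 Id transcripts. Id1 was at 82.6 and 91.6 CPM against 41.6 and 45.5 in WT. Id2 was at 16.8 and 20.5 against 7.59 and 6.16, and Id3 at 54.2 and 56.9 against 22.2 and 19.3. For Id3 the log2 fold change was 1.42 (SE 0.16, edgeR adjusted p = 1.14e-06), for Id2 1.44 (SE 0.19, edgeR adjusted p = 8.15e-06), and for Id1 1.00 (SE 0.16, edgeR adjusted p = 5.12e-05). With Bmp4, 4 of the 10 genes were called against 7.56% of all genes. The call of Id1 lay at the limit of fold and was lost without Mtf2 null replicate 2 or WT replicate 1 (0.94 to 1.08, highest edgeR adjusted p = 0.00256). At 24 h the 1 Id gene called was Id4, at 23.7 and 20.5 CPM against 9.94 and 9.63, a log2 fold change of 1.17 (SE 0.15, edgeR adjusted p = 6.40e-06), and 2 members were called against 5.72% of all genes. Id2 with 0.42 and Id3 with 0.34 did not pass (edgeR adjusted p = 0.112 and 0.148). At 48 h Mtf2 null cells had Id1 at 280.3 and 273 CPM, Id2 at 168 and 156, Id3 at 139 and 134, and Id4 at 13.2 and 14.3, and no Id gene was called (log2 fold changes -0.38, 0.39, 0.08, and -0.38). With library totals alone as the scale, the 8 higher and 3 lower calls of members over the 4 times of this series became 6 and 5. The Mtf2 null effect on Id4 differed between undifferentiated cells and 48 h, by -2.17 on the log2 scale (SE 0.26, edgeR adjusted p = 1.44e-05). That on Id2 differed by -1.36 (SE 0.22, edgeR adjusted p = 0.000263), a call that 6 of the 8 fits without 1 library lost (-1.60 to -1.08, highest edgeR adjusted p = 0.00211). When only the groups compared were fitted, neither passed (-2.19 and -1.38, edgeR adjusted p = 0.0022 and 0.00485).

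In the endoderm medium Mtf2 null cells had more of 3 Id transcripts at 48 h too. Id2 was at 27.7 and 32.3 CPM at 48 h against 8.66 and 4.33 in WT. Id3 was at 6.73 and 8.87 against 1.56 and 1.60, and Id4 at 6.43 and 7.4 against 1.47 and 2.26. Id1 was at 3.97 and 2.79 against 5.20 and 1.70, so that its groups overlapped. The log2 fold changes were 2.30 for Id3 (SE 0.22, edgeR adjusted p = 2.96e-08), 2.20 for Id2 (SE 0.20, edgeR adjusted p = 1.46e-08), and 1.90 for Id4 (SE 0.29, edgeR adjusted p = 2.39e-05), and 6 of the 10 genes were called against 10.5% of all genes. The call of Id4 was lost without WT replicate 1 (1.60, the lowest of the 4 fits, which reached 2.22; highest edgeR adjusted p = 0.00138). At 5 h Id1 was at 32.6 and 32.5 CPM against 17.3 and 17.8 and Id3 at 21.8 and 20.7 against 13.7 and 14.7, neither past the limit of fold. Here 2 members, both ligands, were called against 7.61% of all genes. At 24 h Id1 was at 26.9 and 19.7 CPM against 10.8 and 9.46 and Id2 at 7.38 and 8.14 against 2.18 and 3.00. Both were called (log2 fold changes 1.19 and 1.57, edgeR adjusted p = 0.000686 and 3.97e-05) among 3 members against 6.58% of all genes. The call of Id1 was lost in 3 of the 4 fits without 1 library, all but the fit without Mtf2 null replicate 2 (0.96 to 1.41, highest edgeR adjusted p = 0.0213), and that of Id2 without WT replicate 1 or Mtf2 null replicate 2 (1.36 to 1.83, highest edgeR adjusted p = 0.00179). The effect on Id3 differed between 48 h and undifferentiated cells by 1.43 (SE 0.28, edgeR adjusted p = 0.00088), in 2 of the 8 fits without 1 library as well (1.21 to 1.61, highest edgeR adjusted p = 0.00728), and with Bmp7 2 members were called against 5.24% of all genes.

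Set between the media, the change of Id1 to 48 h differed in Mtf2 null cells by 6.55 on the log2 scale (SE 0.32, edgeR adjusted p = 1.37e-15), Id3 by 4.30 (SE 0.24, edgeR adjusted p = 1.35e-14), Id2 by 2.71 (SE 0.23, edgeR adjusted p = 5.28e-10), and Id4 by 1.75 (SE 0.28, edgeR adjusted p = 0.000171). With Bmp4, 5 of the 10 genes were called against 0.617% of all genes, and the call of Id4 was lost in 4 of the 8 fits without 1 library (1.57 to 1.91, highest edgeR adjusted p = 0.00437) and when only the groups compared were fitted (1.77, edgeR adjusted p = 0.00731). Whether these differences were smaller than those of WT cells was not tested. In Jarid2 null cells, which are described after the ligands, the same 4 Id genes were called against 1.97% of all genes, with log2 differences of 6.60 for Id1, 6.16 for Id3, 4.63 for Id2, and 3.56 for Id4 (edgeR adjusted p = 2.36e-08 or lower).

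**Figure D2:**
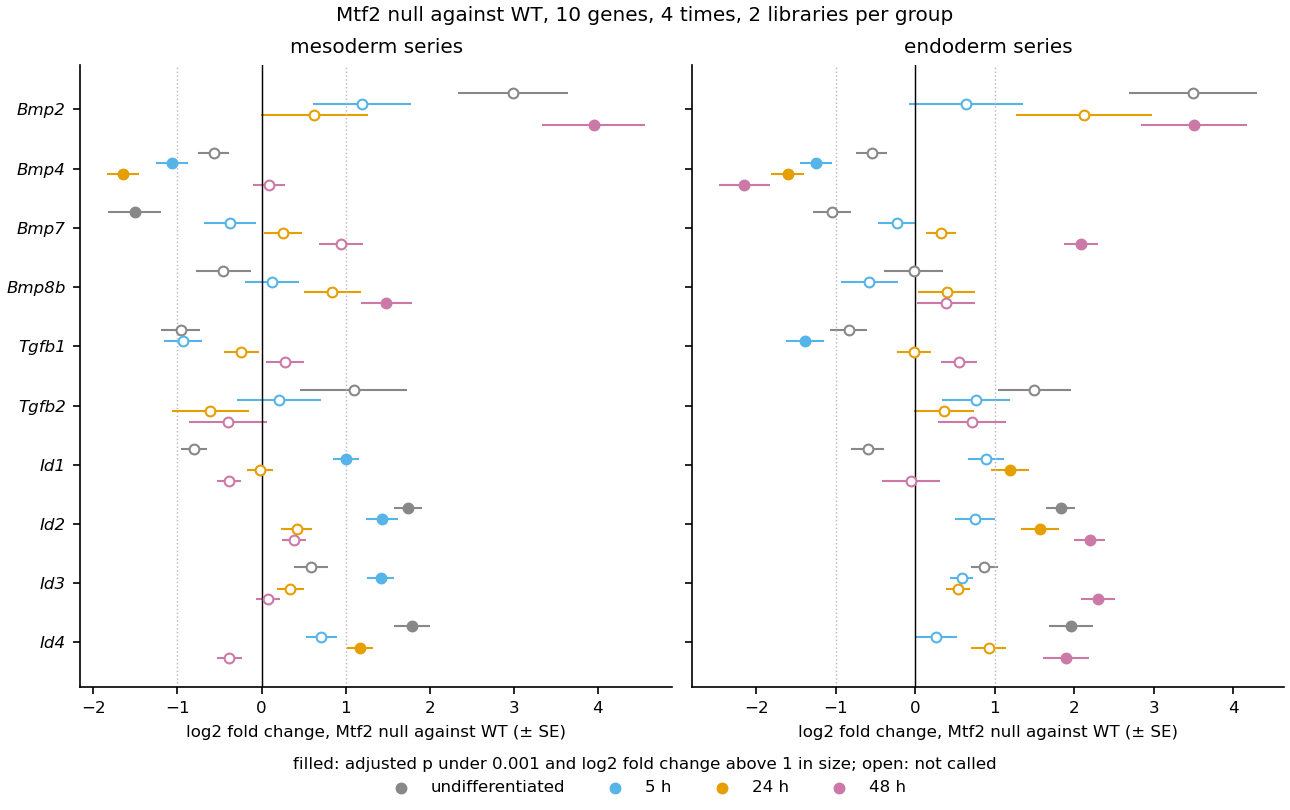
Log2 fold change of Mtf2 null over WT cells (points) with its standard error (bars) for the 10 genes at each time in the mesoderm and endoderm series, from the edgeR fit of each series. Filled points were called, as for Bmp4 at 24 h (-1.65 and -1.61) and for Id2 in undifferentiated cells (1.74 and 1.83).

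Markers of other cell types moved with the Mtf2 null libraries. The summed level of 4 extraembryonic endoderm markers (Sox7, Ttr, Amn, and Afp) was 124 and 108 CPM in the 48 h Mtf2 null endoderm libraries against 3.38 and 3.20 in WT, and 47.6 and 52.9 against 2.94 and 3.91 in the mesoderm series. In undifferentiated cells it was 20.4 to 24.9 CPM in Mtf2 null libraries against 4.97 to 7.58 in WT. At 48 h 3 of the 4 (Sox7, Ttr, and Amn) were called higher in both series. Of 4 definitive endoderm markers, Foxa2 and Sox17 were called higher, with summed levels of 57.1 and 48.8 CPM against 0.866 and 0.942 in the endoderm and 34.3 and 26.2 against 1.177 and 2.36 in the mesoderm series. Of 6 lateral mesoderm markers 1 and 2 were called higher in the mesoderm and endoderm series, with sums of 69.2 and 67.3 CPM against 13.5 and 16.1 and of 52.97 and 52.9 against 4.25 and 4.14. Ttr, Afp, and Cdh5, an endothelial gene, were at 0 in both WT endoderm libraries of 48 h. The part of these cells in the Mtf2 null values of Id2, Id3, Id4, Bmp2, and Bmp7 was not tested.

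Bmp4 (ENSMUSG00000021835, chromosome 14 from 46383520 to 46390669), the ligand added to the mesoderm medium as protein, had fewer transcripts in Mtf2 null cells at 5 and 24 h in either medium. In the mesoderm series WT libraries had 48.2 and 40.04 CPM undifferentiated, 42.5 and 36.3 at 5 h, 50.4 and 49.2 at 24 h, and 17.6 and 15.4 at 48 h. Mtf2 null libraries had 27.4 and 32.04, 18.2 and 19.4, 15.7 and 16.1, and 21.4 and 13.9 CPM. In the endoderm medium WT libraries had 48.0 and 38.2, 45.7 and 47.3, 48.3 and 44.1, and 11.5 and 5.09 CPM. The Mtf2 null values were 29.1 and 29.8, 23.3 and 15.8, 15.8 and 14.5, and 2.10 and 1.68 CPM. Mtf2 null libraries lay below every WT library of the same time and series except at 48 h in the mesoderm medium, where the groups overlapped. The antisense gene Gm15222 overlaps Bmp4 over 1764 bases.

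The log2 fold change of Bmp4 in Mtf2 null cells at 24 h was -1.65 in the mesoderm series (SE 0.19, edgeR adjusted p = 1.76e-06) and -1.61 in the endoderm series (SE 0.21, edgeR adjusted p = 3.83e-06), and both calls held without any 1 library. At 5 h it was -1.07 (SE 0.19, edgeR adjusted p = 0.000193) and -1.25 (SE 0.20, edgeR adjusted p = 6.14e-05). The mesoderm call was lost in all fits without 1 library but that without WT replicate 2 (-1.17 to -0.94, highest edgeR adjusted p = 0.00592), and the endoderm call without replicate 2 of either genotype (-1.56 to -0.99, highest edgeR adjusted p = 0.0046). At 48 h it was -2.15 in the endoderm series (SE 0.32, edgeR adjusted p = 1.58e-05), though not called without WT replicate 1 (-1.44, the smallest of the 4; highest edgeR adjusted p = 0.00132), and 0.09 in the mesoderm series. In undifferentiated cells of both series it was -0.56, under the limit of fold (edgeR adjusted p = 0.00159). Bmp4 was also the 1 ligand whose change to 48 h differed between the media in Mtf2 null cells, by 3.22 (SE 0.37, edgeR adjusted p = 4.18e-07). In WT cells it fell from 24 to 48 h by 1.59 in the mesoderm and by 2.46 in the endoderm medium (edgeR adjusted p = 3.31e-06 and 6.79e-08).

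**Figure D3:**
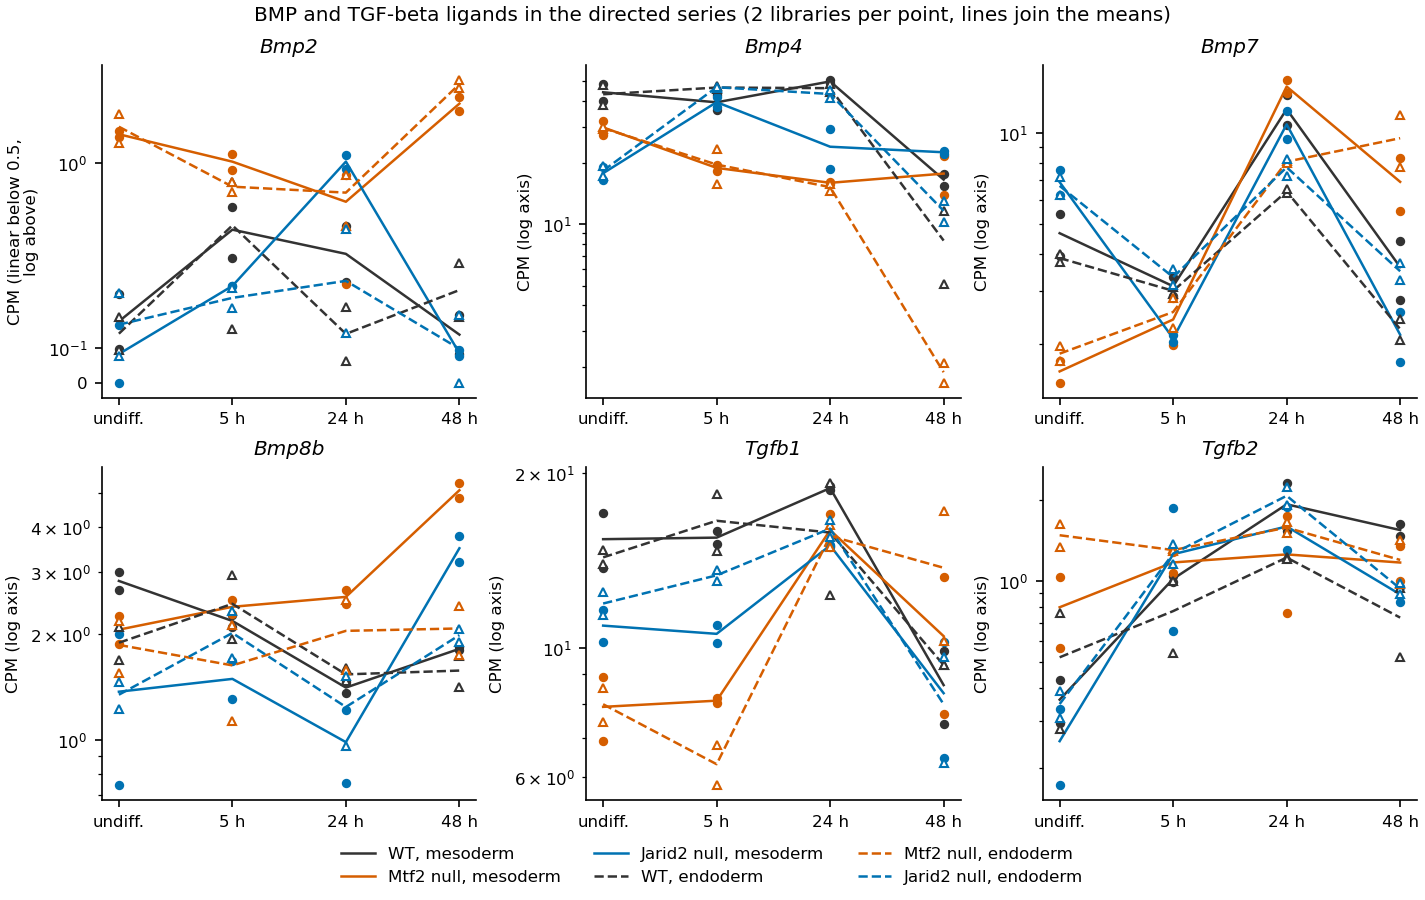
Levels of the 6 ligand genes in CPM (log axis, linear below 0.5 CPM for Bmp2) against time in both directed series, with 1 point per library and lines through the means of 2 libraries. Mtf2 null Bmp4 lies at 14.5 to 16.1 CPM at 24 h against 44.1 to 50.4 CPM in WT, and Mtf2 null Bmp2 at 2.14 to 3.37 CPM at 48 h against 0.0815 to 0.347 CPM.

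Bmp2 (ENSMUSG00000027358, chromosome 2 from 133552159 to 133562885), which signals through the same receptors as Bmp4, was close to absent in WT cells, at 0.0815 to 0.522 CPM in the mesoderm and 0.0639 to 0.754 CPM in the endoderm series. Undifferentiated Mtf2 null libraries had 1.59 and 1.45 CPM and 1.34 and 2.06 CPM, and at 48 h they had 2.64 and 2.14 CPM and 3.37 and 3.00 CPM. All of them lay above every WT library. Between these times the values came nearer to WT, at 0.89 and 1.14 CPM at 5 h and 0.285 and 0.836 at 24 h in the mesoderm series and at 0.755 and 0.645 and 0.831 and 0.452 CPM in the endoderm series. In summed counts this was 31 against 4 in undifferentiated cells of the mesoderm series, a ratio of CPM of 8.33 (95% interval 2.95 to 32.5, counting error only), and 56 against 4 at 48 h, a ratio of 16.3 (6.04 to 62.04). In the endoderm series 40 against 3 counts gave 12.0 (3.82 to 60.6) and 88 against 6 gave 11.7 (5.18 to 32.9). At 5 and 24 h the ratios were 2.36 (1.07 to 5.72) and 1.59 (0.629 to 4.22) in the mesoderm series and 1.58 (0.679 to 3.81) and 4.58 (1.46 to 18.9) in the endoderm series, so that the intervals at 24 h toward mesoderm and at 5 h toward endoderm included 1. The fitted log2 fold change passed in the joint fit of undifferentiated cells (3.25, SE 0.51, edgeR adjusted p = 2.28e-06). At 48 h it was 3.95 in the mesoderm series (edgeR adjusted p = 5.56e-05), lost without either WT library (3.53 to 4.70, highest edgeR adjusted p = 0.00192), and 3.51 in the endoderm series (edgeR adjusted p = 0.000253), lost without any 1 of the 4 libraries (3.16 to 4.00, highest edgeR adjusted p = 0.00795). With Bmp8b it made 2 members called at 48 h in the mesoderm series, against 6.82% of all genes.

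Bmp7 (ENSMUSG00000008999, chromosome 2 from 172868012 to 172940321), a ligand of kidney and eye development, peaked at 24 h in WT cells of both media. It was at 5.42 and 3.92, 2.89 and 3.34, 13.4 and 10.7, and 2.81 and 4.40 CPM along the mesoderm series, and at 3.98 and 3.75, 3.09 and 2.93, 6.32 and 6.52, and 2.43 and 2.07 CPM along the endoderm series. The rise from 5 to 24 h was 1.94 on the log2 scale in the mesoderm medium (edgeR adjusted p = 2.12e-05), lost without WT replicate 1 of 5 h (1.77 to 2.10, highest edgeR adjusted p = 0.00155), and 1.09 in the endoderm medium (edgeR adjusted p = 0.000819), lost without any 1 library (1.07 to 1.13, highest edgeR adjusted p = 0.0133). The fall from 24 to 48 h was called in both media, by 1.75 and 1.51 on the log2 scale (edgeR adjusted p = 4.07e-05 and 3.87e-05). It was lost in the mesoderm medium without replicate 1 of either time (-2.09 to -1.45, highest edgeR adjusted p = 0.00235) and in the endoderm medium without replicate 2 of 48 h (-1.62 to -1.40, highest edgeR adjusted p = 0.00171).

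Mtf2 null cells had less Bmp7 before differentiation and more at 48 h. Undifferentiated Mtf2 null libraries had 1.49 and 1.76 CPM in the mesoderm and 1.76 and 1.97 CPM in the endoderm series, below WT, and at 48 h they had 8.27 and 5.55 CPM and 11.5 and 7.75 CPM, above WT. In undifferentiated cells of both series the log2 fold change was -1.28 (SE 0.20, edgeR adjusted p = 1.57e-06). In the mesoderm series alone it was -1.51 (edgeR adjusted p = 0.000698), lost without any 1 library (-1.74 to -1.26, highest edgeR adjusted p = 0.015). At 48 h it was 2.09 in the endoderm series (SE 0.22, edgeR adjusted p = 1.10e-07), and 0.94 in the mesoderm series was not called (edgeR adjusted p = 0.00996). The effect differed between 48 h and undifferentiated cells by 3.14 in the endoderm series (SE 0.33, edgeR adjusted p = 8.25e-07) and by 2.46 in the mesoderm series (SE 0.41, edgeR adjusted p = 0.000383), where 3 members were called against 2.71% of all genes. The mesoderm call was lost in 5 of the 8 fits without 1 library (2.14 to 2.79, highest edgeR adjusted p = 0.00463) and when only the groups compared were fitted (2.43, edgeR adjusted p = 0.00651).

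Bmp8b (ENSMUSG00000002384, chromosome 4 from 123105165 to 123132099), known from germ cell formation, is nearly identical to Bmp8a over parts of its sequence and overlaps Oxct2b, Ppie, and Gm17244, so its counts are uncertain. It ran from 1.36 to 2.98 CPM in WT cells of both series and reached 5.36 and 4.83 CPM in Mtf2 null and 3.79 and 3.19 CPM in Jarid2 null libraries at 48 h in the mesoderm medium, against 1.83 and 1.79 in WT. The Mtf2 null log2 fold change of 1.49 was called (SE 0.30, edgeR adjusted p = 0.000919) but not without any 1 library (1.41 to 1.56, highest edgeR adjusted p = 0.0116), and that of Jarid2 null cells, 0.94, was not (edgeR adjusted p = 0.141). Tgfb1 (ENSMUSG00000002603, chromosome 7 from 25687002 to 25705077), a TGF-β ligand known from immune regulation and fibrosis, ran from 7.39 to 19.3 CPM in WT cells. At 5 h in the endoderm medium it was at 6.80 and 5.81 CPM in Mtf2 null against 14.7 and 18.4 in WT libraries, a log2 fold change of -1.39 (SE 0.24, edgeR adjusted p = 0.000139) that was lost in all fits without 1 library but that without WT replicate 1 (-1.55 to -1.199, highest edgeR adjusted p = 0.00493). At 5 h in the mesoderm medium it was at 8.19 and 8.03 CPM against 15.1 and 15.9, and the log2 fold change of -0.93 was under the limit. In WT cells it fell from 24 to 48 h in the mesoderm medium by 1.13 on the log2 scale (edgeR adjusted p = 0.000789), lost without any 1 library (-1.35 to -0.94, highest edgeR adjusted p = 0.0225). Tgfb2 (ENSMUSG00000039239, chromosome 1 from 186622792 to 186705989) ran from 0.173 to 2.33 CPM over the 48 libraries and was called in no directed comparison. Undifferentiated Mtf2 null libraries had 0.56 and 1.04 CPM and 1.34 and 1.63 CPM against 0.296 and 0.426 CPM and 0.758 and 0.281 CPM in WT, and the joint log2 fold change of 1.30 did not pass (SE 0.38, edgeR adjusted p = 0.00407).

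Jarid2 null cells differed from WT mainly in Bmp4. Undifferentiated Jarid2 null libraries had 19.1 and 16.4 CPM of Bmp4 in the mesoderm and 19.3 and 17.2 CPM in the endoderm series, below all 4 WT libraries (38.2 to 48.2). At 5 h they had 41.7 and 37.2 CPM and 46.4 and 47.0 CPM, within or close to the WT range. At 24 h they had 18.6 and 29.2 CPM in the mesoderm medium, below WT, and 41.2 and 45.3 CPM in the endoderm medium, and at 48 h 22.9 and 22.0 CPM and 13.0 and 10.3 CPM. In undifferentiated cells of both series the log2 fold change was -1.27 (SE 0.15, edgeR adjusted p = 1.55e-07), the 1 member called against 1.31% of all genes. The separate fits gave -1.31 (edgeR adjusted p = 0.00033, 0.37% of all genes called) and -1.24 (edgeR adjusted p = 0.000492, 0.742%), and each call was lost without any 1 of its 4 libraries (-1.44 to -1.17 and -1.39 to -1.05, highest edgeR adjusted p = 0.00651 and 0.00954).

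No other ligand passed in Jarid2 null cells. Undifferentiated libraries had Bmp7 at 7.54 and 6.24 CPM and at 7.17 and 6.23 CPM, above all 4 WT libraries (3.75 to 5.42), and the joint log2 fold change of 0.69 stayed under the limit (SE 0.16, edgeR adjusted p = 0.00223). Tgfb1 was at 11.6 and 10.2 CPM and at 12.5 and 11.4 CPM, below WT (13.7 to 17.1), with -0.37 (SE 0.16, edgeR adjusted p = 0.107). Bmp8b gave -0.77 (edgeR adjusted p = 0.0224), Tgfb2 -0.53 (0.486), and Bmp2, at 0 to 1.12 CPM over all Jarid2 null libraries, -0.37 (0.794). Over the 8 comparisons by time and series Bmp7 ran from -0.74 to 0.80 and Tgfb1 from -0.55 to 0.03.

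The Id genes of Jarid2 null cells lay near those of WT at the start and at 48 h. Undifferentiated libraries of both series had 67.8 to 85.1 CPM of Id1, 17.1 to 21.0 of Id2, 5.36 to 7.63 of Id3, and 1.54 to 2.45 of Id4. At 48 h in the mesoderm medium Id1 was at 358.5 and 385, Id2 at 149.6 and 143, Id3 at 156.5 and 188, and Id4 at 17.6 and 17.4 CPM. In the endoderm medium they were at 4.62 and 2.88, 5.86 and 6.40, 2.48 and 1.63, and 2.14 and 1.31 CPM. Of these, Id3 at 48 h in both media and Id2 in undifferentiated cells lay above every WT library of the same kind, and the other groups overlapped with WT.

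At 24 h in the mesoderm medium 2 members were called lower in Jarid2 null cells against 1.97% of all genes, Bmp4 with a log2 fold change of -1.07 (edgeR adjusted p = 0.000426) and Id3 with -1.07 (edgeR adjusted p = 0.000327). Id3 was then at 8.47 and 12.6 CPM against 24.1 and 20.0 in WT, and Id1 at 23.1 and 32.7 CPM against 42.8 and 41.5. Both calls held only in the fit without Jarid2 null replicate 2, with ranges over the 4 fits of -1.36 to -0.78 for Bmp4 and -1.31 to -0.80 for Id3 (highest edgeR adjusted p = 0.0266 and 0.0239). Of the marker lists, 1 gene, Cdx2, was called lower in the same comparison. At 5 h and 48 h in the mesoderm medium edgeR called 0 of the 10 genes (0% and 0.169% of all genes), with 1 and 4 at an unadjusted p under 0.05 and 0 by DESeq2. At 5, 24, and 48 h in the endoderm medium it also called 0 (0.0363%, 0.0312%, and 0.125% of all genes), with 2, 3, and 1 at an unadjusted p under 0.05 and 0 by DESeq2. The Jarid2 null effect on Bmp4 moved between undifferentiated cells and 48 h by 1.75 in the mesoderm (edgeR adjusted p = 0.00181) and 1.71 in the endoderm series (edgeR adjusted p = 0.00249). Neither passed, so that 0 members were called against 0.0545% and 0.514% of all genes, while DESeq2 called Bmp4 in both, and 3 and 1 members had an unadjusted p under 0.05.

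The other genes of the pathway were read from lists of 13 receptors, 16 inhibitors, 17 other ligands, 7 other targets, 6 Smads, and 3 E proteins. In undifferentiated Mtf2 null cells of both series, 2 of 13 tested inhibitors were higher, both secreted antagonists, Nog with a log2 fold change of 3.64 and Fst with 3.75, and 0 were lower. Among 12 tested receptors Tgfbr2 was higher (2.04) and 1 other lower, among 9 ligands Bmp6 was higher (1.90), and among 7 targets Ccn2 (also Ctgf, 2.88) and Bmper (4.06) were higher and Tgfbi lower (-1.55). Tcf12, an E protein that Id proteins bind, was higher by 1.58. These counts stand beside 14.5% of all genes called, so that the 2 of 13 inhibitors were near the share of all genes. List medians ran from -0.37 to 0.44 beside -0.05 over all genes. At 48 h in the endoderm medium 4 of 6 tested targets were higher (list median 1.69 beside -0.02 over all genes, of which 10.5% were called and 6.37% were called higher), Bmper by 7.47, Msx2 by 4.04, Ccn2 by 2.00, and Tgfbi by 1.39, together with the receptors Tgfbr3 (3.07) and Tgfbr2 (1.95), the ligands Bmp6 (3.26) and Bmp1 (2.03), Nog (4.30), and Smad3 (1.13). At 48 h in the mesoderm medium, with 6.82% of all genes called, Msx2, a homeobox gene raised by BMP, was lower in Mtf2 null cells (-1.38), and Inhbb was lower (-1.34), while Bmper (4.56), Nog (2.64), Fst (1.28), Bmp6 (3.20), Tgfbr2 (1.95), and Tgfbr3 (1.88) were higher. Each gene named for these comparisons passed edgeR at an adjusted p under 0.001, and fitted values of genes with few WT counts depend on the prior count of the fit. The genes named were picked as those called in most directed contrasts. At 48 h the numbers tested and called are given for the targets in the endoderm medium alone. The other names at 48 h therefore cannot be set against the share of all genes.

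In WT cells 4.16% of all genes were called at the step from 24 to 48 h in the mesoderm medium. There Msx2 (log2 fold change 4.93) and Ccn2 (2.78) were among 3 of 7 tested targets that rose, with a list median of 1.86, and of the inhibitors 2 rose, Smad6 (2.42) among them, and 2 fell, Smad7 (-2.17) and Fst (-2.75). Between the media, the change to 48 h in WT cells was larger toward mesoderm for Msx2 (7.26), Smad6 (3.32), Inhbb (3.00), and Tgfbi (1.66) and smaller for Smad7 (-1.34). In Jarid2 null cells the values were 9.13 for Msx2, 4.92 for Smad6, 2.86 for Inhbb, and -1.15 for Smad7. All passed edgeR at an adjusted p under 0.001. For the comparison between the media the numbers tested and called per list are not given, so these names cannot be set against the share of all genes.

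Across the 48 directed libraries, which share genotypes, media, and duplicates, Id1 varied most closely with Id3 among the 10 genes (Pearson's r = 0.753 of log2 CPM) and Id4 with Id3 (0.721). Outside the lists, the genes most like Id1 were Gata2 (0.828), Coch (0.824), and Nmnat2 (0.824). Those most like Bmp2 were Gata4 (0.875) and Slc34a2 (0.839). For Bmp4 they were Trim16 (0.77), Ceacam20 (0.769), and Gm49455 (0.768), and for Tgfb2 Sh3gl2 (0.779), Klhl42 (0.758), and Mcc (0.745). These are descriptions over libraries that are not independent.

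In the bulk EBs the targeted genes followed the labels in part. Samples labelled Mtf2 null had 316, 237, 231, and 164 CPM of Mtf2 over days 0, 2, 4, and 7 against 415, 442, 324, and 383 in Pcl1-3 WT, lower at each day, but at day 0 the sample labelled Jarid2 null was lower still (127). Jarid2 was lower in the samples labelled Jarid2 null than in JM8 at days 4 and 7 (251 and 221 against 277 and 329 CPM) and higher at days 0 and 2. Eed was lower in the samples labelled Eed null than in J1 at day 2 alone (206 against 246 CPM). Each direction for these samples rests on the label. Days 0, 2, 4, and 7 were fitted in limma with the day as a block. With 1 sample per line and day, the days served as the replicates of a line. These p-values therefore measure the spread over days and not that between repeated cultures of a line. The limit was 0.05 after Benjamini-Hochberg adjustment. In the samples labelled Mtf2 null Bmp4 had 51.4, 46.5, 13.8, and 29.2 CPM against 5.81, 8.74, 2.30, and 9.90 CPM in Pcl1-3 WT, higher at each day. Id1 was at 73.4, 89.5, 59.98, and 106 CPM against 2.80, 15.6, 23.5, and 33.1 CPM, again higher at each day. Bmp2 was at 0.408, 1.11, 7.39, and 21.5 CPM against 0, 0.253, 0.164, and 6.11 CPM. The log2 fold changes were 2.38 for Bmp4 (SE 0.52, limma adjusted p = 0.00364), 2.54 for Id1 (SE 0.42, limma adjusted p = 0.00039), and 2.36 for Bmp2 (SE 0.81, limma adjusted p = 0.0483), and these 3 of the 10 genes were called against 18.5% of all genes. Those of Bmp4 and Id1 passed without any 1 day (2.11 to 2.67 and 1.81 to 2.94, highest limma adjusted p = 0.0245 and 0.00471), day 0 included. That of Bmp2 was lost without day 0, 4, or 7 (1.70 to 2.58, highest limma adjusted p = 0.231). The 7 members not called ran from -0.43 (Id4) to 2.31 (Tgfb2), with the lowest limma adjusted p at 0.0634 for Tgfb2. The direction for Bmp4 was opposite to that of the directed series, where the WT line was E14, and the part of the line was not tested. Id1, higher at day 0 here, was lower in undifferentiated Mtf2 null cells of the directed series, though higher there at 5 h.

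In the libraries labelled Jarid2 null Bmp4 was at 31.4, 97.6, 34.8, and 34.9 CPM against 13.1, 13.3, 4.28, and 37.99 CPM in JM8, higher at all days but the last. The log2 fold change was 1.74 (SE 0.52, limma adjusted p = 0.0291), the 1 member called against 14.9% of all genes, and it was lost without day 2 or day 4 (1.33 to 2.40, highest limma adjusted p = 0.217). This direction too was opposite to that of Bmp4 in undifferentiated Jarid2 null cells of the directed series. The other members ran from -0.75 (Id4) to 1.61 (Bmp2), with the lowest limma adjusted p at 0.131 for Id4. In the libraries labelled Eed null Bmp8b was at 38.5, 4.44, 5.86, and 21.5 CPM against 2.67, 2.504, 1.54, and 2.54 CPM in J1, higher at each day. Its log2 fold change of 2.34 (SE 0.71, limma adjusted p = 0.0401) was the 1 member call against 11.1% of all genes and was lost without day 2, 4, or 7 (1.85 to 2.87, highest limma adjusted p = 0.148). The other members ran from -0.47 (Tgfb1) to 1.21 (Tgfb2), with the lowest limma adjusted p at 0.181 for Id3. Markers of other cell types moved as well. At day 7 the 4 extraembryonic endoderm markers summed to 1593 CPM in the library labelled Mtf2 null against 1.05 in Pcl1-3 WT, 300.4 against 31.2 in that labelled Jarid2 null, and 680.2 against 360 in that labelled Eed null, and their part in these values was not tested.

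In the 3 WT lines of the bulk EBs, fitted with the line as a block, the Id genes rose with time. Id1 was at 2.80, 14.8, and 21.4 CPM at day 0 in Pcl1-3 WT, JM8, and J1, at 15.6, 60.7, and 48.6 at day 2, at 23.5, 55.2, and 87.4 at day 4, and at 33.1, 55.5, and 54.96 at day 7. Id2 was at 8.07, 6.30, and 11.8 CPM at day 0 and at 28.3, 51.2, and 83.6 at day 7, and Id3 at 8.20, 10.3, and 9.08 at day 0 and at 33.2, 52.8, and 55.7 at day 7. Day 7 lay above day 0 in every line for all 3, while Id4 ran from 3.85 to 12.3 CPM with no call. Bmp2 reached 6.11, 31.8, and 56.2 CPM at day 7 from at most 1.07 at day 0, and Tgfb2 reached 2.32, 35.04, and 60.7 CPM from at most 0.712.

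Against day 0, limma called 3 of the 10 genes at day 2 (12.7% of all genes), 3 at day 4 (15.8%), and 5 at day 7 (26.2%). At day 7 the log2 fold changes were 5.75 for Bmp2 (limma adjusted p = 0.00699), 4.63 for Tgfb2 (limma adjusted p = 0.0161), 2.55 for Id2 (limma adjusted p = 0.00147), 2.33 for Id3 (limma adjusted p = 0.0062), and 2.26 for Id1 (limma adjusted p = 0.00295). At day 4 they were 2.29 for Id1, 1.95 for Id3, and 1.34 for Id2 (limma adjusted p = 0.0202 or lower). At day 2 they were 1.88 for Id1, 1.199 for Id2, and -2.04 for Bmp7, the last with 3.29, 2.53, and 3.27 CPM against 12.4, 7.97, and 22.8 (limma adjusted p = 0.0151, 0.0369, and 0.0245). Without JM8, which leaves 2 lines, 10 of these 11 calls could be tested and all were lost (adjusted p up to 0.383 over the fits without 1 line). Bmp7 was also lost without either other line (-2.32 to -1.72, highest limma adjusted p = 0.289), and Id2 at day 2 without Pcl1-3 WT (0.89 to 1.41).

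**Figure D4:**
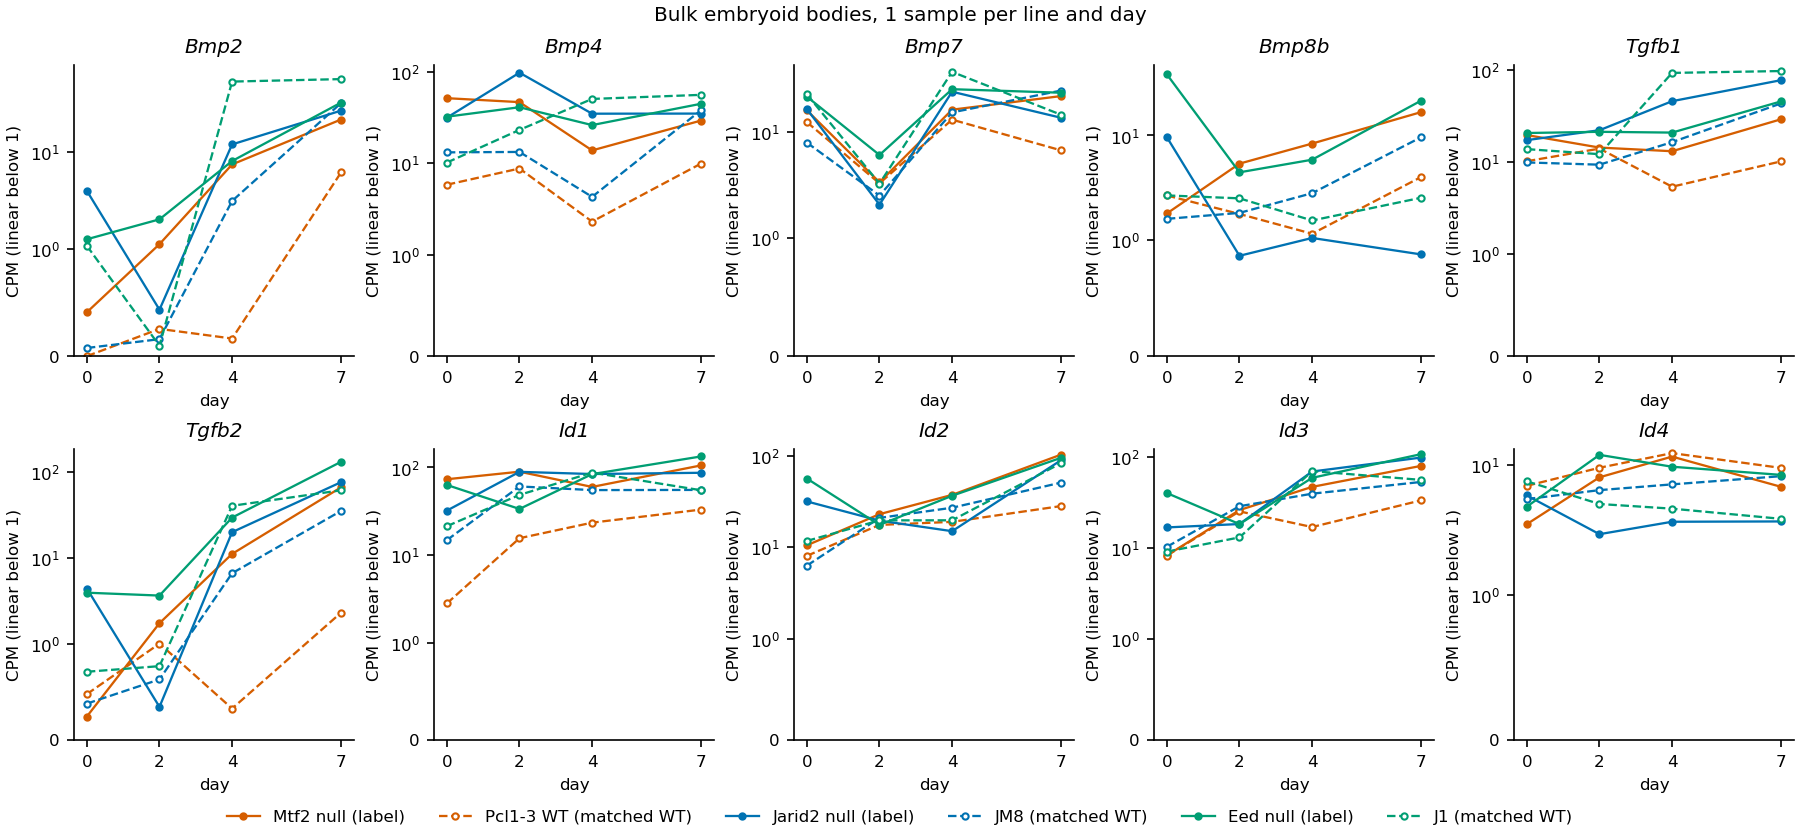
Levels of the 10 genes in CPM (log axis, linear below 1 CPM) in bulk EBs at days 0, 2, 4, and 7, with 1 sample per line and day for 3 WT lines and the 3 lines labelled null. The line labelled Mtf2 null lies above Pcl1-3 WT at each of the 4 days for Bmp4 and Id1.

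In the single cells each genotype and day was 1 library, so no test between genotypes is given, and levels are summed UMIs of the kept cells scaled to CPM (UMI CPM) with 95% Poisson intervals that cover counting error only. The 4949 cells came from libraries of 202 to 347 cells, and every well barcode was used by more than 1 library. The targeted genes followed the labels when set against WT. Mtf2 was at 53.7 to 61.1 UMI CPM in Mtf2 null libraries against 365 to 793.5 in WT, Jarid2 at 115 to 185 in Jarid2 null libraries against 215 to 594.5, and Eed at 1.33 to 11.5 in Eed null libraries against 115 to 478. At day 7, however, Jarid2 was as low in the Mtf2 null library (183.6) as in the Jarid2 null library (184.7).

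Bmp4 was highest in undifferentiated WT cells among the 16 libraries. It was at 645 UMI CPM at day 0 in WT (616.5 to 674), 345 in Eed null (326 to 366), 293 in Mtf2 null (276 to 310.3), and 212 in Jarid2 null cells (196.5 to 229), and none of these intervals overlap. At day 4 it was at 77.04, 89.95, 49.8, and 23.8 UMI CPM in the same order, at day 7 at 213.3, 212.7, 327, and 60.9, and at day 10 at 289.7, 242, 290.3, and 145. It was thus lower at day 4 than at days 0 and 7 in every genotype, with Jarid2 null cells lowest at each day. Bmp2 had 0 to 6 UMIs per library at days 0 and 4. At day 0 it had 0 UMIs in Mtf2 null (upper limit 0.948 UMI CPM) and 1 in WT cells. The higher Bmp2 of undifferentiated Mtf2 null cells in the directed series was thus not seen. At day 7 it was at 28.3 UMI CPM in WT (21.6 to 36.4), 57.3 in Mtf2 null (48.2 to 67.7), 8.92 in Jarid2 null (5.20 to 14.3), and 11.5 in Eed null cells (7.55 to 16.7), and at day 10 at 60.1, 55.6, 18.4, and 90.3.

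Tgfb2 rose late. At day 10 it was at 137 UMI CPM in WT (118 to 157), 73.6 in Mtf2 null (62.6 to 86.0), 47.3 in Jarid2 null (37.6 to 58.7), and 487 in Eed null cells (450 to 525.5), from 0 to 5.30 at day 0. Bmp7 rose from 1.54 to 10.3 UMI CPM at day 0 to 17.3 to 35.2 at day 10 over the 4 genotypes. Bmp8b and Tgfb1 stayed at or below 5.76 and 7.46 UMI CPM in all libraries, and Bmp8b was highest in Eed null cells at day 4 (5.76, 3.07 to 9.85).

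The Id genes were higher in the 3 null genotypes than in WT cells at day 10. Id2 was at 232 UMI CPM in WT (207 to 258), 519.5 in Mtf2 null (489.5 to 551), 464.5 in Jarid2 null (433 to 498), and 890.5 in Eed null cells (841 to 942.5). Id1 was at 131 (113 to 151) against 347, 326, and 564 in the same order. Id3 was at 211 (188 to 236.5) against 474, 358, and 496, and Id4 at 12.9 (7.63 to 20.4) against 36.1, 40.9, and 70.9. For all 4 the WT interval lay below those of the other genotypes. The libraries differed in their cells per cluster, and the part of this in these levels was not tested. At day 0 the order differed, with Id1 at 225 in WT, 237 in Mtf2 null, 315 in Jarid2 null, and 164 in Eed null cells, and Id2 at 146 in WT and 138 in Mtf2 null, whose intervals overlap, against 85.0 in Jarid2 null and 77.8 in Eed null cells. The higher Id2 and lower Id1 of undifferentiated Mtf2 null cells in the directed series were thus not seen here. Id3 (110 against 74.9 in WT) and Id4 (34.7 against 25.8, with overlapping intervals) were higher in Mtf2 null cells here too. The cause was not tested.

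The 22 clusters of the study at resolution 2.5, whose cells were grouped on genes of the same data, differed in their levels of ligands and Id genes. Some, such as clusters 4 and 13, were high in both ligands and Id genes. Cluster 4 (324 cells, Hand1 at 750.4 UMI CPM) had 757 UMI CPM of Bmp4, 98.6 of Bmp2, 203.5 of Tgfb2, 526 of Id2, and 529 of Id3. Cluster 3 (335 cells, 311 of them WT and 329 from day 0) had 683 of Bmp4 but 0.34 of Bmp2 and 0 of Tgfb2. Clusters 14 (190 cells, T at 535 and Eomes at 535.5) and 20 (49 cells, T at 616.4) had 368.5 and 555 of Bmp4, and Bmp2 was at 90.95 and 33.5. Cluster 13 (226 cells, 197 of them Eed null) had the highest Tgfb2 (489.5), Id1 (551.5), and Id2 (840) of the 22 clusters. Cluster 15 (136 cells, Six3 at 248 and Pax6 at 112) had Id2 at 693 and the highest Id3 (778) and Id4 (64.5), while Bmp2 was at 4.61. Cluster 16 (134 cells, 123 of them Eed null) had Id3 at 676 and Id1 at 448. Cluster 19 (57 cells, Kdr at 1247 and Cdh5 at 248) had Id3 at 507 and Bmp4 at 18.9. Cluster 21 (47 cells, Sox17 at 361 and Foxa2 at 211) had Id1 at 424 and Bmp2 at 62.2. Cluster 18 (114 cells) had little of the Id genes, with Id1 at 57.7 and Id3 at 12.7. Its Tgfb1, a gene low in every cluster, was at 9.24 (3.99 to 18.2), and its Bmp2 at 13.85.

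Clusters 1, 4, and 14 held at least 20 cells of each of 3 genotypes. Cluster 4 had 122 WT, 159 Mtf2 null, and 40 Jarid2 null cells, with 118 of all its cells from day 7 and 206 from day 10. The days of each genotype are not given. Tgfb2 was at 336 UMI CPM in its WT cells (296 to 380.3), 126 in Mtf2 null (106.5 to 149), and 143 in Jarid2 null cells (103 to 194). Bmp4 was at 608.7 (554 to 667), 873 (819 to 929), and 683 (591 to 784), and Id1 at 261 (225 to 300.1), 317 (285 to 352), and 543 (462 to 634). Id2 was at 458 (411 to 509.5), 490 (450 to 533), and 802 (703 to 912), and Id3 at 509, 534.5, and 546 had overlapping intervals. Within these cells, then, Tgfb2 was highest in WT, Bmp4 in Mtf2 null, and Id1 and Id2 in Jarid2 null cells. These differences exceeded counting error, while the spread between libraries was not measured. In cluster 1 Bmp4 was highest in WT, at 53.5 UMI CPM (33.1 to 81.8), against 23.0 in Mtf2 null (16.1 to 31.9) and 11.2 in Jarid2 null cells (5.61 to 20.1). In cluster 14 Tgfb2 was at 42.9 in WT (29.3 to 60.5), 14.0 in Mtf2 null (6.06 to 27.65), and 19.8 in Jarid2 null cells (4.09 to 58.0).

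**Figure D5:**
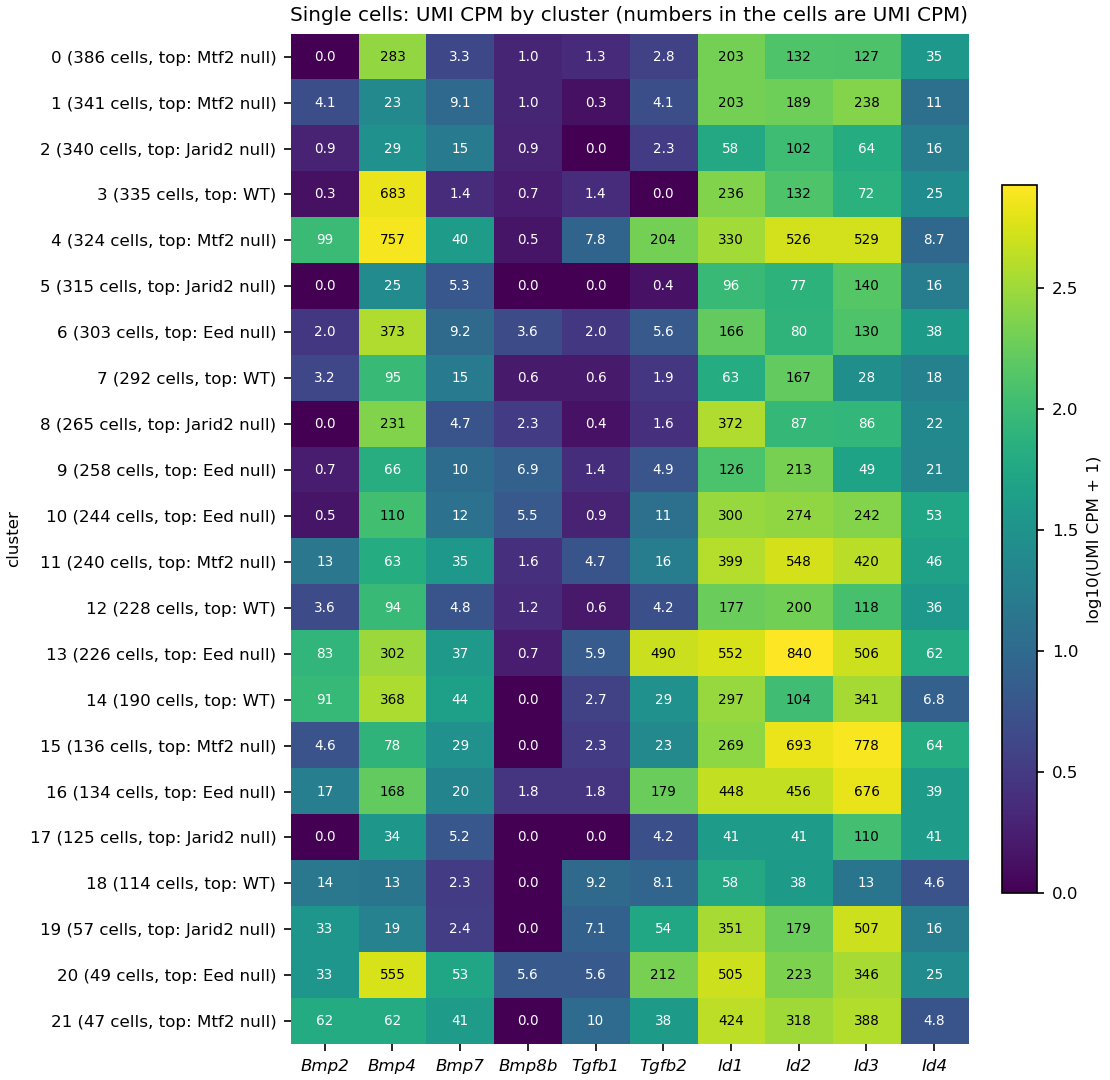
Heat map of the levels of the 10 genes (columns) in the 22 clusters (rows, with their number of cells and the genotype that gave the most of them), as log10(UMI CPM + 1) of the summed UMIs of each cluster. Cluster 4 combines Bmp4 (757 UMI CPM) with Bmp2 (98.6), and clusters 13 and 15 hold the highest Id2 (840) and Id3 (778).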

How the data were processed

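RNA was sequenced from directed monolayer cultures, embryoid bodies, and sorted single cells. For the directed series the authors deposited expected counts (estimated with Salmon, 74.9% and 73.1% of values whole), which were rounded. For bulk EBs the authors deposited a signal, gene counts divided by size factors, from which whole reads were recovered (100% of values in 46 columns, tolerance 0.02). The columns of a sample were then summed. Most samples had 2 columns, named r1 and r2 in most cases, and the Eed null and J1 samples of day 0 had 1. The study describes bulk RNA-seq as technical duplicates, and the spread between the columns of a sample was not used. For single cells the authors deposited UMI counts with their clusters. Tools named in the submitters' processing notes include Bowtie2, HTSeq, Salmon, and DESeq2, with GRCm38, and versions are not given in the sources used here. The 2 endoderm Jarid2 null columns named 28h were read as 48 h, the time in the labels. No replicate pair agreed within sampling noise (lowest chi-square per degree of freedom 2.37).

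Directed counts were fitted per series in edgeR 4.0.16 (R 4.3.3, quasi-likelihood, TMM, genes kept by filterByExpr at a minimum count of 10 and total of 15, leaving 18361 and 19261, and 19601 in the joint fit), with a call at an adjusted p under 0.001 and an absolute log2 fold change above 1. Adjusted p-values are Benjamini-Hochberg values over all genes of a fit. Bulk EB reads were fitted in limma 3.58.1 (trend, log2 CPM with a prior count of 2, genes at 1 CPM in 4 samples, 15833 and 14566 genes) with an adjusted p under 0.05. Single-cell UMIs were summed and given with 95% Poisson intervals (scipy 1.17.1), and doublets were left as the authors' cell selection left them. On simulated data 69.5% (mesoderm, Mtf2 null against WT, undifferentiated) and 71.5% (endoderm) of 200 genes changed by a log2 of 2 were recovered, and 79% for Eed null against J1. Alternatives were DESeq2 1.42.0, other scalings, filters, prior counts, a replicate block, and leaving out each library. The 10 genes and all lists were chosen with earlier results of these data known. All 10 were to be named in every comparison (members not called are given partly as ranges), other pathway genes by list counts and by at most 4 genes a list, those called in most directed contrasts, and the 3 genes most alike by Pearson's r, of which 1 is not reported here.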

Additional observations from a re-analysis of the deposited data

Results flagged for a closer look

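Effects that differed between times or media by their own test (edgeR, adjusted p under 0.001) are collected here as values. The Mtf2 null effect at 48 h minus that in undifferentiated cells was 2.46 for Bmp7, -1.36 for Id2, and -2.17 for Id4 in the mesoderm series, and 3.14 for Bmp7 and 1.43 for Id3 in the endoderm series, on the log2 scale. The change to 48 h in the mesoderm minus that in the endoderm medium was 6.68 for Id1, 4.42 for Id2, 6.24 for Id3, and 3.85 for Id4 in WT cells. In Mtf2 null cells it was 3.22 for Bmp4, 6.55 for Id1, 2.71 for Id2, 4.30 for Id3, and 1.75 for Id4. In Jarid2 null cells it was 6.60 for Id1, 4.63 for Id2, 6.16 for Id3, and 3.56 for Id4. When only the groups compared were fitted, the 3 mesoderm calls of the Mtf2 null change and the call of Id3 in the endoderm series were lost, as were those of Id4 between the media in WT and Mtf2 null cells.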

How the results depend on the processing

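Of 87 calls of members, 71 in the directed series and 16 in the bulk EBs, none changed direction under the alternatives run. In the directed series 71 held with RLE scaling, 65 with DESeq2, 64 with library totals alone, 67 with the replicate block, 48 when only the groups compared were fitted, and 42 without any 1 library. In the bulk EBs 15 held with edgeR, 6 without the day or line block, and 3 without any 1 day or line. Of these 3, Tgfb2 at day 7 was tested in 1 such fit alone. Library totals alone moved the median log2 fold change of all genes by up to -0.26 (undifferentiated Mtf2 null, endoderm series).

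Counts of called members moved by over 1.5 times as follows. For the Mtf2 null effect at 48 h against undifferentiated cells the mesoderm count of 3 became 5 at an adjusted p under 0.05 and 0 with only the groups compared, and the endoderm count of 2 became 4 and 1. For the Jarid2 null effect the mesoderm count of 0 became 2 at an adjusted p under 0.05 and 1 with library totals, without the filter, or with DESeq2, and the endoderm count of 0 became 1 at an adjusted p under 0.05, without the filter, or with DESeq2. Jarid2 null against WT in the mesoderm series went from 3 to 1 with library totals or only the groups compared, and the WT steps from 11 to 7 (mesoderm) and 9 to 3 (endoderm) with only the groups compared. Undifferentiated Mtf2 null cells of both series went from 4 to 7 without a limit on the fold. In bulk EBs the count labelled Jarid2 null went from 1 to 0 without the day block, that labelled Eed null from 1 to 0 without the block or the filter, and the WT days from 11 to 4. The causes were not tested.

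Without 1 library the counts ran from 9 to 11 (Mtf2 null, mesoderm), 10 to 14 (Mtf2 null, endoderm), 1 to 3 (Jarid2 null, mesoderm), 0 to 1 (Jarid2 null, endoderm), 8 to 10 and 7 to 9 (WT steps, mesoderm and endoderm), 1 to 3 and 1 to 2 (change of the Mtf2 null effect), 0 to 0 and 0 to 1 (change of the Jarid2 null effect), 4 to 5 and 1 to 1 (undifferentiated cells of both series), and 4 to 4, 4 to 5, and 4 to 4 (between media in WT, Mtf2 null, and Jarid2 null cells). In bulk EBs without 1 day or line they ran from 2 to 5, 0 to 3, and 0 to 2 (labelled Mtf2, Jarid2, and Eed null) and 0 to 12 (WT days).

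Within a series, replicate numbers did not pair the directed libraries. The correlation of deviations between same-numbered libraries had a median of 0.00688 in the mesoderm (-0.183 to 0.267) and 0.0102 in the endoderm series (-0.157 to 0.201). Between the series, undifferentiated replicate 2 libraries lay closer to each other than to their own duplicates. Their chi-square per degree of freedom was 8.08 in WT, against 11.5 and 12.1 within the mesoderm and endoderm series. It was 7.335 against 12.2 and 10.9 in Mtf2 null and 5.15 against 9.92 and 8.02 in Jarid2 null cells. The replicate 1 pairs gave 19.1, 11.55, and 6.92. With the number as a block the count for the change of the Mtf2 null effect in the endoderm series was 1, the Mtf2 null count of the mesoderm series 9, and 4 calls were lost, Id1 at 5 h (1.00), Bmp8b at 48 h (1.48), and Tgfb1 from 24 to 48 h in WT (-1.13) in the mesoderm series and the change for Id3 in the endoderm series (1.43). In the single cells 0 of 160 values left their interval with all wells, 46 with cells thinned to 2500 UMIs, and 32 as means over cells. Bmp2 and Tgfb2 were near the floor of 3 counts in many directed libraries, so small differences there were not detectable.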
